A study of Mus musculus with 8 samples.

Results

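The SMYD family comprises the 5 mouse genes Smyd1 to Smyd5, taken by symbol from the 55450 gene rows of the count table, and all 5 were measured. One of them, Smyd3, was the transcript against which the antisense oligonucleotide (ASO) of the study was directed. MOC1, a carcinoma line derived from the mouse mouth, was grown as flank tumours in C57BL/6 mice, and each of 8 tumours was profiled in bulk by polyA RNA sequencing. Every mouse was on anti-PD-1, which blocks an inhibitory receptor of T cells, for 32 days. Smyd3 ASO accompanied it for 5 tumours and control ASO for 3. Of the 5 Smyd3 ASO tumours, the labels mark numbers 1 and 3 as responders and 2 others, called 1 and 2 here in listing order, as non-responders, while tumour 2 of that arm carries no mark. The source label names a tongue carcinoma, whereas the design places the implants in the flank. Every tumour holds implanted cells of a single line together with the cells of its host, and the labels give neither the age of the mice nor the sequence of either ASO.

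SMYD proteins are lysine methyltransferases whose catalytic SET domain is split by a MYND zinc finger, a fold that binds proline-rich partners. They methylate histones and other proteins, some of them in the cytoplasm. SMYD3 is known for methylating the kinase MAP3K2 in Ras-driven tumours. SMYD1 is a factor of striated muscle, needed for heart development and for sarcomere assembly, where it works with the myosin chaperone UNC45B. SMYD2 methylates p53, RB and HSP90. SMYD5 has been linked to the NCoR corepressor complex and to heterochromatin, and SMYD4, the least studied member, to heart development in zebrafish.

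Library totals lay between 22103853.1 and 27258700.1 expected counts, mitochondrial genes took 1.94% to 2.58% of them, and log2 CPM (reads scaled to a common library size) of any pair of libraries correlated at 0.908 to 0.980 across genes. The 10 epithelial markers chosen for the carcinoma (among them Krt5, Krt14 and Epcam) summed to 23371 to 45718 CPM in Smyd3 ASO tumours and 33502 to 42148 CPM in control ASO tumours, and none was at 0 in the controls, as the label of a squamous carcinoma has it. In bulk tissue, fewer cells of a type and less RNA per cell cannot be told apart. The labels do not say that each library is a separate animal, so p-values measure the spread between these libraries.

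Smyd3, the ASO target, was lower and Smyd1, the muscle member, was higher in every Smyd3 ASO tumour than in any control ASO tumour. Smyd3 averaged 6.36 ± 2.40 CPM in Smyd3 ASO tumours and 11.1 ± 0.719 CPM in control ASO tumours (SD, n = 5 and 3). Smyd1 averaged 15.2 ± 16.3 CPM in Smyd3 ASO tumours and 0.467 ± 0.160 CPM in control ASO tumours. Smyd2, Smyd4 and Smyd5 overlapped between the arms. In edgeR's quasi-likelihood test over 16911 genes, no family member passed a false discovery rate (FDR) of 0.05 between the arms, where 0 genes of any kind did (0%, lowest FDR 0.0656). DESeq2 called 1053 genes and limma voom 0. At an unadjusted p under 0.05 the test held Smyd1 and Smyd3, 2 of 5 members, against 2629 genes in all (15.5%). Among all genes, 1791 (10.6%) did not overlap between the arms, against 2 of 5 members. In 921 (5.45%) the Smyd3 ASO arm was higher, as for Smyd1, and in 870 (5.14%) it was lower, as for Smyd3.

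**Figure D1:**
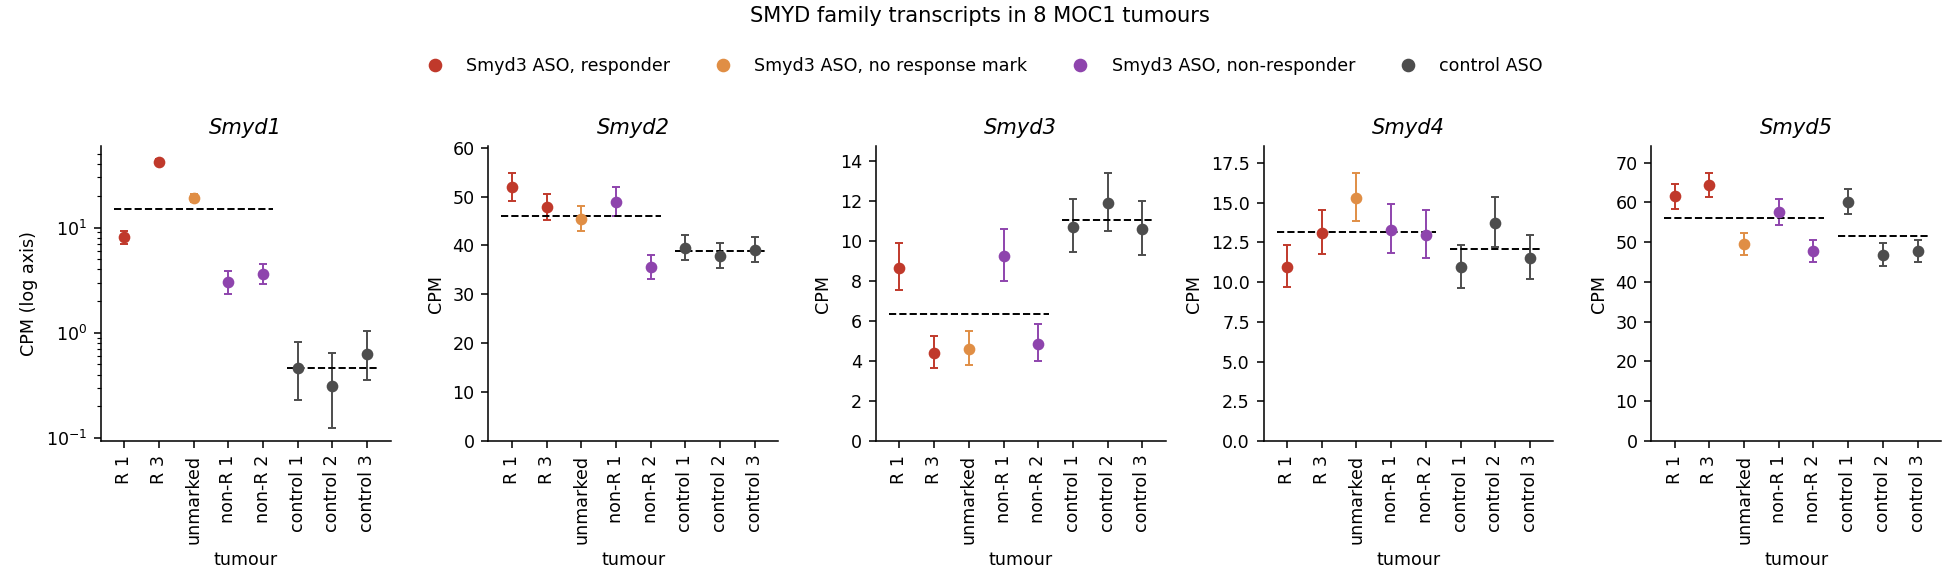
Levels of the 5 SMYD genes in each tumour, in CPM after TMM scaling, each gene on its own axis (log for Smyd1, linear from 0 for the others). Points are tumours coloured by group, with R for responder, bars are exact 95% Poisson intervals that cover counting error only, and dashed lines are the means of the arms. The arms are apart for Smyd1 and Smyd3 and overlap for Smyd2, Smyd4 and Smyd5.

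Smyd3 (ENSMUSG00000055067.15) spans chr1:178951960-179518041 on the minus strand of mm10, 566 kb of genome with 7 annotated transcripts in GENCODE M21. It stood at 8.68 and 4.38 CPM in responders 1 and 3, 4.58 CPM in the unmarked tumour and 9.26 and 4.88 CPM in non-responders 1 and 2, against 10.7, 11.9 and 10.6 CPM in the control ASO tumours. The reads behind these values numbered 112 to 214 in Smyd3 ASO libraries and 252 to 267 in control ASO libraries. Responder 1 and non-responder 1 kept 78.3% and 83.6% of the control mean, and the other 3 Smyd3 ASO tumours kept 39.6% to 44.0%. Each response class thus held 1 tumour at the higher level and 1 at the lower, and the arms did not overlap. The spread relative to the mean was 37.8% in the Smyd3 ASO arm and 6.49% in the control ASO arm. With 56 ways to divide the tumours into arms, an exact permutation test gave two-sided p = 0.0357, the smallest it can give. The log2 fold change was -0.80 (SE 0.29, 95% interval -1.46 to -0.14; 0.574 of the control level), with an edgeR FDR of 0.246, and 569 of all genes tested (3.36%) had a lower one. Of 8 fibroblast markers, 4 had a negative log2 fold change (Col1a1 -1.004, Col1a2 -0.88, Col3a1 -0.72 and Pdgfrb -1.003) and 4 a positive one (Pdgfra 0.43, Lum 0.43, Dcn 0.26 and Fap 0.17), none called by edgeR. Their sum, mostly of the 3 collagens, was 4248 to 5807 CPM in Smyd3 ASO tumours and 6540 to 11675 CPM in controls. The 10 epithelial markers overlapped between the arms, and their sum was highest, at 45718 CPM, in non-responder 1, the Smyd3 ASO tumour with the most Smyd3. It was 26009 and 23371 CPM in responders 1 and 3, 34660 CPM in the unmarked tumour and 29760 CPM in non-responder 2. The order of these tumours by this sum was not their order by Smyd3. The part of the fibroblast or epithelial markers in the Smyd3 difference was not tested.

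By response mark, Smyd3 gave a log2 difference of -0.11 (95% interval -1.10 to 0.87) in responders against non-responders, with an edgeR FDR of 0.958. Responders against controls gave -0.76 (-1.68 to 0.15), edgeR FDR 0.387, and non-responders against controls -0.65 (-1.56 to 0.27), edgeR FDR 0.660. These intervals include a log2 difference of 0. Against controls, the responders gave -1.34 without responder 1 and -0.36 without responder 3, and the non-responders gave -1.18 without non-responder 1 and -0.26 without non-responder 2. Responders against controls and non-responders against controls share their controls.

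The genes next to Smyd3 were read for their own levels. Kif26b, a kinesin-like gene 12.8 kb away, stood at 56.4, 46.6, 66.7, 36.4 and 63.6 CPM in responders 1 and 3, the unmarked tumour and non-responders 1 and 2, against 74.5, 82.0 and 79.8 CPM in controls. The arms did not overlap, as for Smyd3, while the tumour with the lowest Kif26b, non-responder 1, had the highest Smyd3 of its arm. Its log2 fold change was -0.55 (SE 0.18), edgeR FDR 0.216. Tfb2m, a mitochondrial transcription factor gene 10.01 kb away, averaged 28.0 ± 1.83 CPM in Smyd3 ASO tumours and 26.7 ± 2.11 CPM in controls, edgeR FDR 0.806. Cnst averaged 26.0 ± 2.67 CPM in Smyd3 ASO tumours and 23.7 ± 1.39 CPM in controls, edgeR FDR 0.633. Efcab2 averaged 1.68 CPM in Smyd3 ASO tumours and 1.51 CPM in controls, edgeR FDR 0.838. Of these 4 neighbours, Kif26b was the one whose arms were apart. Among all genes tested, 10.6% were apart, and 5.14% were apart with the Smyd3 ASO arm lower.

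**Figure D2:**
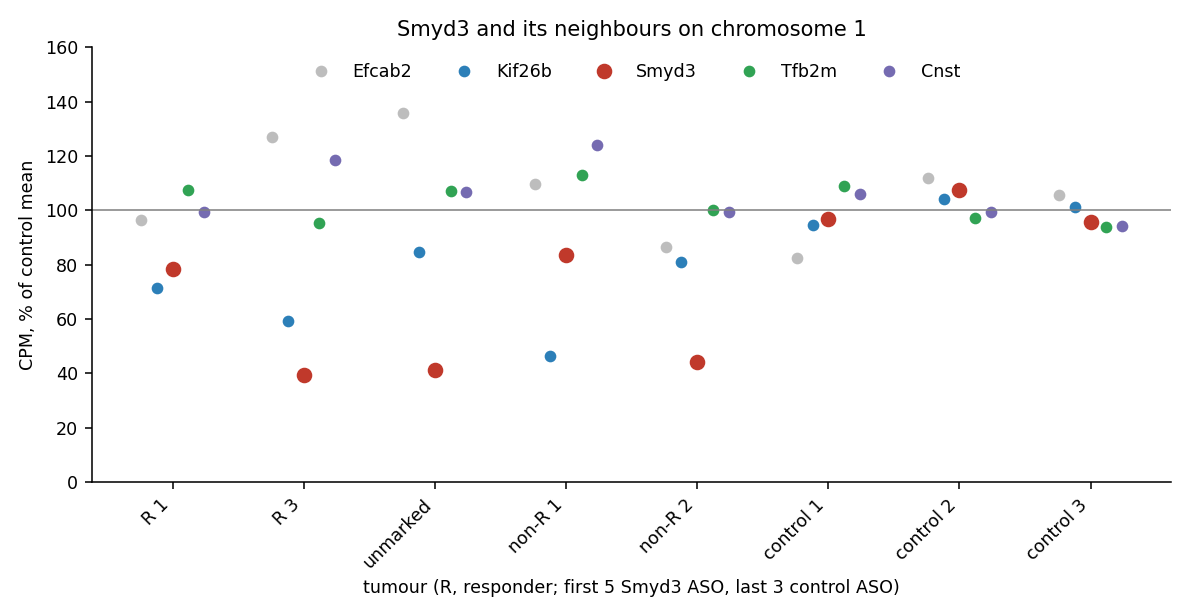
Smyd3 and its neighbours in each tumour as a percent of each gene's control ASO mean (linear axis), 1 point per gene and tumour, with Smyd3 ASO tumours left of control ASO tumours. Smyd3 lay at 39.6% to 83.6% of the control mean in Smyd3 ASO tumours. Kif26b was the neighbour whose arms did not overlap, which held for 10.6% of all genes tested.

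Smyd1 (ENSMUSG00000055027.17), chr6:71213940-71322233 on the minus strand, was the most variable member. Responder 3 had 41.8 CPM, the unmarked tumour 19.2, responder 1 8.11, and non-responders 2 and 1 3.62 and 3.04 CPM, against 0.457, 0.312 and 0.631 CPM in controls. The reads were 1155, 494, 200, 83 and 66 in those Smyd3 ASO libraries, against 11, 7 and 15 in control ASO libraries, where the exact 95% Poisson interval of 7 reads is 2.81 to 14.4 and covers counting error only. Every Smyd3 ASO tumour was above every control, as for 5.45% of all genes tested. Both responders were above both non-responders, as for 20.3% of all genes tested. The highest and lowest of the 8 tumours differed 134-fold in Smyd1. The gene reached the count minimum of 0.424 CPM in 7 libraries, 5 of Smyd3 ASO and 2 of control ASO.

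The log2 fold change of Smyd1 between the arms was 5.004 (SE 1.09, 95% interval 2.51 to 7.49; 32.1-fold), edgeR FDR 0.101, and 155 genes had a higher one. DESeq2 called it (5.02, adjusted p 9.82e-08), and limma voom did not. The exact permutation test gave two-sided p = 0.0357. In responders against controls it was 5.72 (SE 0.72, interval 4.03 to 7.42; 52.8-fold), and it rose there with an edgeR FDR of 0.0245. DESeq2 also called it (5.73), and limma voom did not (5.33, FDR 0.121). It was the single member of 5 called in that comparison, in which 280 genes of all tested (1.66%) were called, 234 of them higher (1.38%). DESeq2 called 1153 genes there and limma voom 135. The call was lost when any control library was left out, with an edgeR FDR of 0.121 without control 1, 0.0575 without control 2 and 0.0829 without control 3, at log2 differences of 5.70, 5.52 and 5.99. It was kept without responder 3 (4.09) and without responder 1 (6.46). The 280 calls became 0, 107 and 6 without controls 1, 2 and 3, 33 without responder 3, and 169 and 134 without non-responders 1 and 2. Responders against non-responders gave 2.91 (SE 0.72, 7.50-fold), edgeR FDR 0.505, and non-responders against controls 2.82 (SE 0.70, 7.04-fold), edgeR FDR 0.367. In responders against non-responders edgeR called 0 genes (0%), with 1436 (8.49%) at an unadjusted p under 0.05, while DESeq2 called 215 and limma voom 0. In non-responders against controls edgeR called 0 genes (0%), with 1562 (9.24%) at an unadjusted p under 0.05, while DESeq2 called 335 and limma voom 0.

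Skeletal muscle transcripts moved with Smyd1. The 20 muscle markers, among them Acta1, Ckm and Myh1, summed to 13642 CPM in responder 3, 6029 in the unmarked tumour, 2910 in responder 1, and 1206 and 824 CPM in non-responders 2 and 1, against 90.5, 49.4 and 130 CPM in controls. The order of the 8 tumours by this sum was their order by Smyd1. All 20 markers had a positive log2 fold change between the arms (median 5.81, against 0.01 over all genes tested), with no overlap between the arms for 20 of 20. Of all genes tested, 10.6% did not overlap, and 5.45% did not with the Smyd3 ASO arm higher. No marker of the list was at 0 in all controls. Per 1000 CPM of muscle markers, Smyd1 was 2.79 to 3.69 CPM in Smyd3 ASO tumours and 4.84 to 6.31 CPM in controls. The control values rest on 7 to 15 Smyd1 reads per library and are imprecise. How far muscle content sets the Smyd1 level was not tested.

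Cardiac markers gave no such pattern. Nppa, the atrial natriuretic peptide gene, had 0 reads in every library, and Myh6, the cardiac myosin gene, at most 1. Nkx2-5, a heart transcription factor gene, had at most 2 reads in a library. Over the 6 cardiac markers the sum was 45.1 to 157 CPM in Smyd3 ASO tumours and 66.0 to 118 CPM in controls, mostly of Tnnt2. Only 2 of the 6, Tnnt2 and Tnni3, passed the count filter. Tnnt2 averaged 77.6 ± 44.2 CPM in Smyd3 ASO tumours and 83.1 ± 27.7 CPM in controls (-0.10, edgeR FDR 0.932). Tnni3 averaged 1.56 ± 0.375 CPM in Smyd3 ASO tumours and 2.16 ± 0.378 CPM in controls (-0.47, edgeR FDR 0.475). Of the muscle partners of Smyd1, Unc45b had 9.41, 24.1, 10.9, 3.41 and 3.09 CPM in responders 1 and 3, the unmarked tumour and non-responders 1 and 2, against 1.62, 2.63 and 2.19 CPM in controls. It was called higher in responders against controls (log2 difference 2.96, edgeR FDR 0.0276), among 234 genes in all (1.38%). Without control 1, edgeR called 0 genes there, and without control 3 it called 6, of which 5 were higher. Unc45b was not called between the arms (2.25, edgeR FDR 0.196). The muscle determination gene Myod1 gave 2.84 between the arms (edgeR FDR 0.192) and Myog 2.11 (edgeR FDR 0.226). Trib3, a pseudokinase gene of the same list, averaged 15.6 ± 3.25 CPM in Smyd3 ASO tumours and 22.8 ± 6.20 CPM in controls (-0.55, edgeR FDR 0.302). Of 12 tested genes of the SMYD1 list, 8 were above and 4 below a log2 fold change of 0 (median 0.16), none called. Between the arms 4 of the 12 did not overlap, all 4 higher in Smyd3 ASO tumours, against 10.6% of all genes apart and 5.45% apart and higher.

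Smyd1 also lies opposite Cd8b1, and the gene was first described as a transcript opposite Cd8b. GENCODE M21 gives 6 transcripts. Starts at 71262232, 71262253 and 71262281 lie 60.5 to 60.6 kb from the start of Cd8b1, starts at 71322206 and 71322233 lie 0.582 and 0.555 kb from it, and a short transcript starts at 71216874 within the gene. Gene-level counts merge these starts, so their transcripts cannot be told apart. Cd8b1 had 7.14, 14.7, 6.64, 2.07 and 4.75 CPM in responders 1 and 3, the unmarked tumour and non-responders 1 and 2, against 1.83, 2.41 and 1.51 CPM in controls. Non-responder 1 lay within the control range, unlike for Smyd1. Cd8a had 17.7, 39.5, 17.9, 7.74 and 16.5 CPM in the same Smyd3 ASO tumours, against 3.99, 6.69 and 5.05 CPM in controls. Its arms did not overlap, as for Smyd1 and for 10.6% of all genes tested. Within the Smyd3 ASO arm, Cd8a put the tumours in the order of Smyd1. The log2 fold change of Cd8a was 1.92, edgeR FDR 0.130. The 10 T and NK cell markers summed to 43.7 to 222 CPM in Smyd3 ASO tumours and 26.7 to 59.4 CPM in controls. The 6 adipocyte markers summed to 204 CPM in responder 3, 29.7 to 56.3 CPM in the other Smyd3 ASO tumours and 16.9 to 42.5 CPM in controls. In controls the adipocyte sum was mostly Fabp4, at 16.5 to 42.2 CPM. The part of these T cell, NK cell and adipocyte markers in the result was not tested. On the opposite strand, Smyd1 also overlaps Krcc1, which had 60.2 to 77.1 CPM in Smyd3 ASO tumours and 79.2 to 89.8 CPM in controls. The strand setting of the counting is not given in the sources used here, although the kit marks strand.

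**Figure D3:**
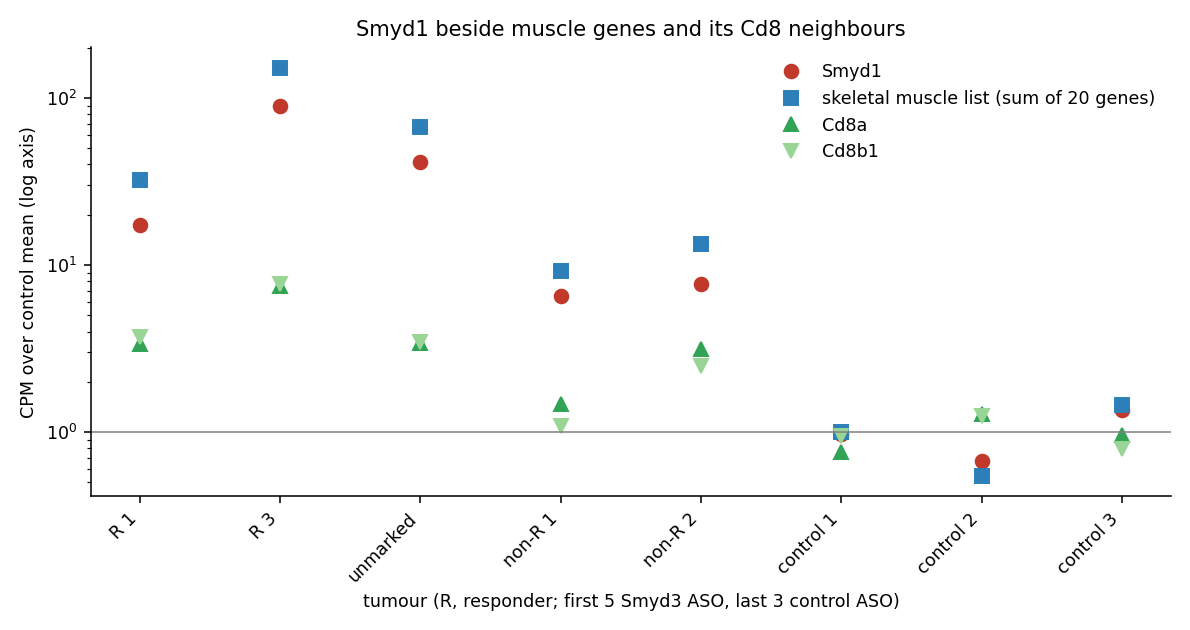
Smyd1, the sum of the muscle markers, Cd8a and Cd8b1 in each tumour as CPM over the control ASO mean of the same quantity (log axis), with Smyd3 ASO tumours left of control ASO tumours. Smyd1 and the sum of 20 muscle markers put the 8 tumours in 1 order. Cd8a was above every control in each Smyd3 ASO tumour, while Cd8b1 of non-responder 1 lay within the control range.

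The upstream sequence of Smyd1 is shown beside that of Smyd2, the member with the highest level per kb of exon. They have the lowest and highest GC content of the 4 members with a promoter entry, and Smyd3 has none. Whether base composition goes with the spread of a member between tumours was not tested. Both run 5′ to 3′ on the gene's strand, 250 bases before the RefSeq start (GRCm38.p6), Smyd1 at chr6:71262282-71262531 and Smyd2 at chr1:189922292-189922541, both on the minus strand. Capitals mark TATAAA and GGGCGG on either strand, the second being the core of an SP1 box.
Smyd1: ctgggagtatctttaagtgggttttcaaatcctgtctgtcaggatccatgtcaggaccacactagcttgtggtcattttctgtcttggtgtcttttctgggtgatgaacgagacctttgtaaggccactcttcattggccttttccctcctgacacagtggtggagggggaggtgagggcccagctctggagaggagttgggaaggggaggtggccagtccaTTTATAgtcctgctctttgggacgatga
Smyd2: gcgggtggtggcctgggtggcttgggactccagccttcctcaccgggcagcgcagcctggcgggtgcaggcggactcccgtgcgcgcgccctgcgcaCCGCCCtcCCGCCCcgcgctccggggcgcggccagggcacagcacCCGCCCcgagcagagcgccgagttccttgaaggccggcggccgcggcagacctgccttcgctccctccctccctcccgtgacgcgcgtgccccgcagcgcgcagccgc
The Smyd1 window has 51.6% GC with 2 CpG dinucleotides, and 18.8% of 32841 RefSeq promoters of the same length have fewer. The Smyd2 window has 78.8% GC with 34 CpG, and 96.5% of promoters have fewer. TATAAA (present in 12.4% of promoters on either strand) occurs in Smyd1 on the opposite strand, while Smyd2 holds 3 GGGCGG runs (present in 32.7% of promoters). Neither the E-box CANNTG (66.2% of promoters) nor the CArG or MEF2 motif letters (1.47% and 2.92%) occur in the Smyd1 window. Smyd4 and Smyd5, at 69.2% and 60.4% GC, each hold 2 GGGCGG runs, and Smyd4 also holds 2 E-boxes.

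Smyd2, Smyd4 and Smyd5 differed less between tumours than Smyd1 and Smyd3. Smyd2 (ENSMUSG00000026603.13, chr1:189880492-189922363, minus strand), the p53 methyltransferase, stood at 51.9, 47.8, 45.5, 48.9 and 35.6 CPM in responders 1 and 3, the unmarked tumour and non-responders 1 and 2, against 39.5, 37.9 and 39.1 CPM in controls. Of the Smyd3 ASO tumours, 4 were above every control and non-responder 2 was below every control. Its log2 fold change was 0.24 (SE 0.12, 95% interval -0.04 to 0.52), edgeR FDR 0.392. The exact permutation test gave two-sided p = 0.143.

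Smyd4 (ENSMUSG00000018809.2, chr11:75348433-75405705, plus strand) stood at 10.95, 13.1, 15.3, 13.3 and 12.98 CPM in the Smyd3 ASO tumours in that order, against 10.9, 13.7 and 11.5 CPM in controls. The groups overlapped, with a log2 fold change of 0.12 (SE 0.15, 95% interval -0.21 to 0.46), edgeR FDR 0.744. Smyd5 (ENSMUSG00000033706.13, chr6:85431989-85446435, plus strand) stood at 61.5 and 64.4 CPM in responders, 49.6 CPM in the unmarked tumour and 57.6 and 47.7 CPM in non-responders, against 60.2, 46.9 and 47.7 CPM in controls. Its log2 fold change was 0.12 (SE 0.14, 95% interval -0.19 to 0.43), edgeR FDR 0.724. Both responders had more Smyd5 than both non-responders, as for Smyd1, and 6637 of 16911 genes (39.2%) kept those 2 groups apart, 3437 of them (20.3%) with responders higher and 3200 (18.9%) with responders lower. The log2 difference was 0.26 (interval -0.15 to 0.66), edgeR FDR 0.696. The highest and lowest tumours differed 1.46-fold for Smyd2, 1.40-fold for Smyd4 and 1.37-fold for Smyd5, against 2.72-fold for Smyd3.

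**Figure D4:**
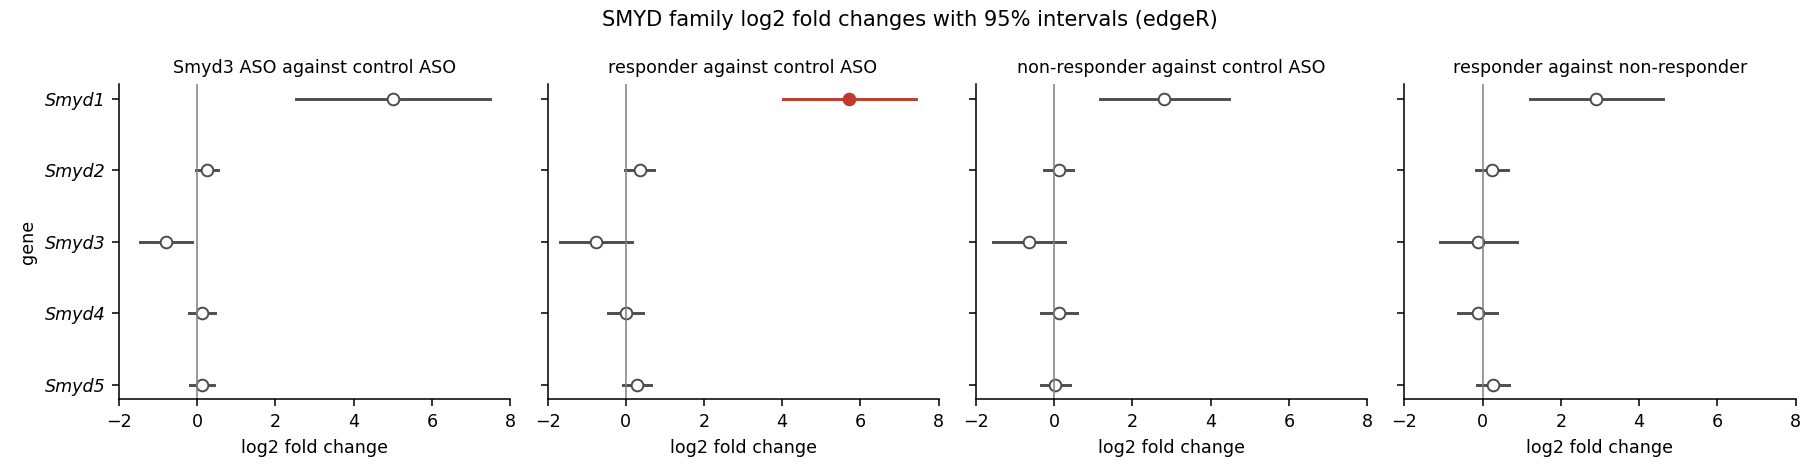
Log2 difference of each SMYD gene in the 4 comparisons with its 95% interval from edgeR, where a filled red point marks an FDR under 0.05 and the comparisons with controls share those controls. The interval lies to the right of 0 for Smyd1 in all 4 comparisons, and for Smyd3 it lies left of 0 between the arms only.

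Levels between members depended on the length by which counts are divided. Per kb of all annotated exons, Smyd2 was the highest, with 16.9 CPM per kb in Smyd3 ASO tumours and 14.3 in controls, followed by Smyd5 with 9.60 in Smyd3 ASO tumours and 8.83 in controls. Smyd4 had 3.03 in Smyd3 ASO tumours and 2.79 in controls, and Smyd3 had 0.692 in Smyd3 ASO tumours and 1.21 in controls. Smyd1 had 3.33 in Smyd3 ASO tumours and was the lowest in controls with 0.103. Per kb of coding sequence Smyd5 came before Smyd2, with 44.99 CPM per kb in Smyd3 ASO tumours and 41.4 in controls for Smyd5, and 35.4 in Smyd3 ASO tumours and 29.9 in controls for Smyd2. On this scale Smyd3 had 4.95 in Smyd3 ASO tumours and 8.63 in controls, above Smyd4 in controls, which had 5.48 in Smyd3 ASO tumours and 5.03 in controls.

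Genes connected with SMYD3 were read as lists. The 11 substrates and partners of SMYD3 had 5 genes above and 6 below a log2 fold change of 0, none called by edgeR, with a median of -0.0009 against 0.01 for all genes tested. Flt1, the VEGF receptor methylated by SMYD3, averaged 65.4 ± 16.4 CPM in Smyd3 ASO tumours and 110 ± 12.9 CPM in controls (-0.75, edgeR FDR 0.153). Hsp90ab1, a cytosolic chaperone, averaged 3300 ± 543 CPM in Smyd3 ASO tumours and 2660 ± 20.6 CPM in controls (0.31, edgeR FDR 0.346). Polr2a, the large RNA polymerase II subunit, averaged 279 ± 71.6 CPM in Smyd3 ASO tumours and 365 ± 14.9 CPM in controls (-0.39, edgeR FDR 0.398). It was called lower in responders against controls (-0.84, edgeR FDR 0.0276), among 46 genes in all (0.272%). Without control 1, edgeR called 0 genes in that comparison, and without control 3 it called 6, of which 1 was lower. Map3k2, named here outside the naming rule after its values were seen, averaged 36.8 ± 4.49 CPM in Smyd3 ASO tumours and 36.0 ± 4.64 CPM in controls, edgeR FDR 0.940.

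The reported SMYD3 target genes tested here numbered 5, with 4 above and 1 below 0 (median 0.21) and none called. Wnt10b, a Wnt ligand, averaged 5.17 ± 1.94 CPM in Smyd3 ASO tumours and 3.42 ± 1.62 CPM in controls (0.59, edgeR FDR 0.543). Met, the receptor of hepatocyte growth factor, averaged 99.2 ± 16.6 CPM in Smyd3 ASO tumours and 111 ± 5.47 CPM in controls (-0.16, edgeR FDR 0.630). Uhrf1, an adaptor of maintenance DNA methylation, averaged 136 ± 48.8 CPM in Smyd3 ASO tumours and 117 ± 25.4 CPM in controls (0.21, edgeR FDR 0.761). Mmp9, a matrix protease, averaged 107 ± 68.9 CPM in Smyd3 ASO tumours and 81.1 ± 18.5 CPM in controls (0.40, edgeR FDR 0.770).

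The substrates of SMYD2 gave 5 of 7 above 0 (median 0.10), among them Hsp90ab1 with the values given above and Trp53 at 175 ± 13.6 CPM in Smyd3 ASO tumours and 159 ± 8.83 CPM in controls (0.13, edgeR FDR 0.555). Of the 6 SMYD5 partners, 5 were below 0 (median -0.05), with Tbl1x, a subunit of the NCoR complex, at 136 ± 10.3 CPM in Smyd3 ASO tumours and 166 ± 23.1 CPM in controls (-0.28, edgeR FDR 0.277). The 30 other SET methyltransferase genes had 22 below 0 and 8 above (median -0.12), with none called, and their sum was 2257 to 2663 CPM in Smyd3 ASO tumours and 2750 to 2818 CPM in controls. Taken singly, 5 of the 30 were apart with the Smyd3 ASO arm lower and 1 with it higher. The shares over all genes tested were 5.14% lower and 5.45% higher. Setd5 averaged 171 ± 18.9 CPM in Smyd3 ASO tumours and 215 ± 10.8 CPM in controls (edgeR FDR 0.208). Kmt2d, an enhancer-associated H3 methyltransferase, averaged 212 ± 38.5 CPM in Smyd3 ASO tumours and 291 ± 11.4 CPM in controls (edgeR FDR 0.210). It was called lower in responders against controls (-0.76, edgeR FDR 0.0371), as 1 of 46 genes in all (0.272%). This call was also lost without control 1, and without control 3 edgeR called 6 genes there, 1 of them lower.

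**Figure D5:**
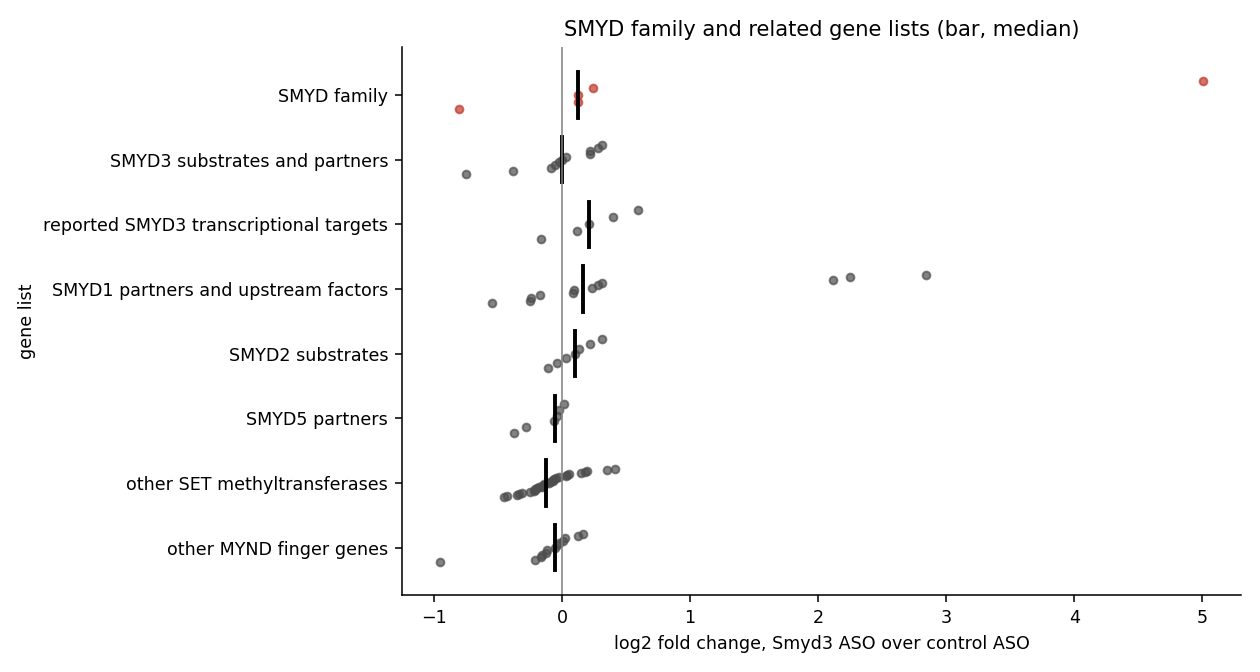
Log2 fold change of Smyd3 ASO over control ASO for each tested gene (points, SMYD genes in red) of the family and 7 related lists, with each list's median as a black bar. Medians lay between -0.12 and 0.21, Smyd1 stood at 5.004 and Smyd3 at -0.80, and no gene was called.

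The genes whose log2 CPM across the 8 tumours most resembled each member were named by Pearson r among 12648 genes, as a description of libraries that share depth and composition. For Smyd1 these were Pygm, the muscle glycogen phosphorylase (r = 0.998), Mylk2, Myoz1 and Ldb3 (0.997 each), and 244 genes had r over 0.9. For Smyd2 they were Ndufs4, a subunit of respiratory complex I (0.961), Atp5f1, Ndufb4c and Cenpk, with 35 such genes. For Smyd3 they were Glt1d1 (0.967), Mt2, a metallothionein gene, Prss35 and Mab21l3, with 43. Smyd4 had Ces2f (0.932) at the top with 4 such genes, and Smyd5 had Coprs (0.957) with 17.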

How the data were processed

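Total RNA was sequenced as polyA libraries, per the labels' protocols with a TruSeq Stranded mRNA kit. The deposited table holds the authors' RSEM expected counts per gene for 8 tumours, not scaled to depth; RSEM 1.3.0, STAR 2.7.0f, cutadapt 1.18, bcl2fastq 2.17 and mm10 appear in the submitters' processing notes, and neither order nor strand setting or annotation is given in the sources used here. Symbols and coordinates come from GENCODE M21, which holds all 55450 IDs.

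Expected counts were rounded. Genes with 0.424 CPM (10 reads in the median library) in 2 or more libraries and 15 reads in total were kept, 16911 genes holding 99.93% of reads. Libraries were scaled with TMM and tested with edgeR 4.0.16 (R 4.3.3; robust quasi-likelihood, two-sided, Benjamini-Hochberg FDR 0.05). Arms were fitted with treatment alone, response groups with 4 groups over all libraries. Printed intervals are 95% intervals from the t quantile of the fit. Alternatives with DESeq2 1.42.0, limma 3.58.1 voom, other filters, each tumour left out and a replicate block are described in the closing section. The named genes are the members, the 2 to 4 genes of each list with the smallest unadjusted p between the arms, the neighbours of Smyd3 and the 4 genes most like each member. A gene of the SMYD5 list that this rule names is not reported here. Scripts were tested on simulated data. Members and lists were chosen with earlier results of these data known.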

Additional observations from a re-analysis of the deposited data

How the results depend on the processing

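Counts of called genes between the arms were 0, against 1053 with DESeq2, 52 without the filter, 286 with the 6 numbered tumours (both non-responders left out), 25 averaging both response groups, and 0 to 258 with 1 library left out (258 without non-responder 1). The labels do not say that tumours of the same replicate number are paired. Correlations of same-numbered deviations were -0.0343, 0.000272 and 0.0764. Differently numbered tumours were not compared in this way, so these values cannot decide on pairing. On the same 6 tumours a replicate block gave 245 genes and Smyd1 5.40 (edgeR FDR 0.0204), against 286 and 5.60 (edgeR FDR 0.0233) without the block. Responders against non-responders gave 215 with DESeq2, 7 without the filter and 0 to 21 with 1 left out (21 without responder 1). Responders against controls gave 280, against 1153 with DESeq2, 135 with voom, 499 without the filter and 0 to 287 with 1 left out (0, 107 and 6 without controls 1, 2 and 3, 33 without responder 3, 169 and 134 without non-responders 1 and 2). Non-responders against controls gave 335 with DESeq2, 33 without the filter and 0 to 0 with 1 left out.

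Smyd1 kept its direction throughout: between the arms 5.02 with DESeq2 (adjusted p 9.82e-08), 4.16 to 5.27 with 1 left out; responders against non-responders 2.90 with DESeq2 (adjusted p 0.0043), 1.29 to 3.66 with 1 left out (3.66 without responder 1, edgeR FDR 0.0487); responders against controls 5.33 with voom (limma FDR 0.121) and 4.09 to 6.46; non-responders against controls 2.84 with DESeq2 (adjusted p 0.00324). Smyd3 was below 0 between the arms in 19 of 19 alternatives (-0.99 to -0.70, adjusted p 0.117 to 0.415, none past the threshold); for responders against non-responders it was 0.30 without responder 3 and 0.42 without non-responder 1 (-0.69 to 0.42 with 1 left out), and against controls -1.34 to -0.36 for responders and -1.18 to -0.26 for non-responders. Smyd4 was -0.26 to 0.0023 for responders against non-responders, and for responders against controls 0.0091 with upper quartile, 0.0063 with voom, and -0.15 to 0.11. Non-responders against controls gave -0.11 to 0.16 for Smyd5 and -0.13 to 0.33 for Smyd2. The causes were not tested. Small groups and 7 to 15 Smyd1 reads in controls limit precision.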

Other observations

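Among 13 tested genes that, like the SMYD genes, carry a MYND finger, 9 were below and 4 above a log2 fold change of 0 between the arms, with none called by edgeR. Egln1, the oxygen-sensing prolyl hydroxylase, averaged 130 ± 12.1 CPM in Smyd3 ASO tumours and 252 ± 63.5 CPM in control ASO tumours (SD, n = 5 and 3; log2 fold change -0.95, edgeR FDR 0.0758). Egln1 was the single gene of the 13 whose arms did not overlap. Among all genes tested, 10.6% did not overlap, and 5.14% did not with the Smyd3 ASO arm lower. Zmynd8, a chromatin reader gene, averaged 100.3 ± 11.3 CPM in Smyd3 ASO tumours and 112 ± 9.47 CPM in controls (-0.15, edgeR FDR 0.562). The other SET methyltransferase genes had 27 of 30 below 0 in responders against non-responders (median -0.20, against 0.01 over all genes tested). None was called in this comparison of 2 tumours with 2, where 18.9% of all genes were apart with responders lower. Mmp9 had 46.1 and 38.2 CPM in responders 1 and 3, 172 CPM in the unmarked tumour, and 186 and 93.7 CPM in non-responders 1 and 2, with a log2 difference of -1.73 in responders against non-responders (edgeR FDR 0.492).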
